A study of Mus musculus with 18 samples.

Results

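Hoxb1 was induced in neural progenitors in the absence of SAG, a Smoothened agonist that switches on hedgehog signalling, and RNA from these cells was compared with RNA from neural progenitors without Hoxb1, also without SAG. The comparison rests on 6 libraries, 3 with Hoxb1 and 3 without, of 18 libraries in the series. Members were taken by their labels. The first group is labelled as ES-derived neural progenitor cells that express Hoxb1, and their treatment carries DOX (doxycycline). The second is labelled as the same cell type not expressing Hoxb1, with no doxycycline. Both derive from mouse embryonic stem cells of strain C57BL/6, and neither received SAG. Hoxb1 and doxycycline therefore go together and cannot be told apart. Which line or clone gave each group, and whether the 3 libraries of a group are separate differentiations, the sources used here do not say. The p-values therefore measure the spread between these libraries, which may be technical. The labels name no construct, and gene counts do not separate an introduced Hoxb1 from the endogenous gene. The sources used here give no medium, culture time or dose.

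Hox genes encode homeodomain transcription factors that give cells along the body axis their position, and they lie in clusters in which the order of the genes matches their order along the axis. Hoxb1 is best known in the hindbrain, where it marks the fourth rhombomere, the segment that makes facial branchiomotor neurons. It binds DNA together with PBX and MEIS proteins, and in mouse embryos it maintains its own expression through such sites. The hindbrain lies between the midbrain, marked by Otx2 and En1, and the spinal cord, marked by more posterior Hox genes.

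The 3 libraries with Hoxb1 held 13301476 to 14505711 counted reads, and the 3 without held 13589876 to 13976829. Levels are in CPM, read counts scaled to the effective size of each library. Fold changes and adjusted p-values are from edgeR's quasi-likelihood test with Benjamini-Hochberg adjustment over all 16238 genes tested, and a gene was called when its adjusted p was under 0.05. The pan-neural progenitor genes Sox1 and Sox2 were high in both groups, at 213 and 544 CPM with Hoxb1 and 289.6 and 641 CPM without. Mitochondrially encoded RNA made up 1.00% to 1.12% of counts with Hoxb1 and 0.933% to 0.960% without. Along the first principal component, with 69.6% of the variance, the groups separated. Library 1 without Hoxb1 stood apart on the second, which holds 8.14%, so the counts below were repeated without it.

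Of the 16238 genes, 3908 rose (24.1%) and 3591 fell (22.1%), which is 46.2% in all. Most of these changes were small, since 5501 of the called genes, or 73.4%, differed by less than 1.5-fold. At least 2-fold changes were fewer, with 462 genes higher (2.85%) and 493 lower (3.04%), 5.88% in all. With 50 counts required in 3 libraries, 339 were higher and 313 lower at 2-fold. Without library 1 of the group lacking Hoxb1 the 2-fold counts were 498 higher and 513 lower. The libraries of both groups did not overlap at 53.8% of genes. These shares are the background against which the members of each gene list are read below. They are over all tested genes and are not matched to the lists in level or gene type. A count above them therefore need not be particular to a list. Genes were named by a rule given with the processing, and those added after their values were seen are listed there.

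Hoxb1 itself was measured at 349.5, 343 and 317 CPM in the libraries with Hoxb1, against 0.369, 0.668 and 0.0725 CPM in those without. Every induced library was far above every uninduced one, and the uninduced level rests on 15 counted reads in all 3 libraries together. The log2 fold change was 9.81 ± 0.11 (SE, n = 3 each), adjusted p = 1.06e-34. The gene lies at chr11:96365752-96368256 on the plus strand of mm10, at one end of the Hoxb cluster.

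The nearest genes of the Hoxb cluster rose with it, and per length of exon each was lower than the one before it in the order of the cluster. Hoxb2, which acts in the hindbrain segments around Hoxb1's domain, had 73.4, 67.0 and 68.1 CPM with Hoxb1, against 0.737, 0.816 and 0.725 CPM without. Hoxb3 had 20.2, 21.7 and 19.3 CPM with Hoxb1, against 0.664, 0.816 and 0.725 CPM without. Hoxb4 had 5.39, 7.19 and 6.32 CPM with Hoxb1, against 0.590, 0.445 and 0.290 CPM without. None of these groups of libraries overlapped. The log2 fold changes were 6.51 ± 0.11 for Hoxb2, 4.78 ± 0.16 for Hoxb3 and 3.81 ± 0.24 for Hoxb4 (SE, n = 3 each). Per kilobase of exon, the level with Hoxb1 was 145 CPM for Hoxb1, 21.0 CPM for Hoxb2, 6.79 CPM for Hoxb3 and 1.52 CPM for Hoxb4. Without Hoxb1 the 4 genes were at 0.106 to 0.244 CPM per kilobase. In this bulk RNA, a gene active in fewer cells cannot be told apart from less of its RNA in each cell. The antisense RNA Hoxb3os shares exon sequence with Hoxb2 and Hoxb3 on the other strand and had 91.1, 97.2 and 89.1 CPM with Hoxb1, against 0.516, 0.668 and 0.580 CPM without. The sources used here do not give the strand setting of the counting, so reads from Hoxb3os and from Hoxb2 or Hoxb3 may be mixed.

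On another chromosome, the Hoxa cluster moved at Hoxa2 and Hoxa3. Hoxa2, which patterns the hindbrain and the neural crest leaving it, had 19.6, 23.4 and 21.9 CPM with Hoxb1, against 1.92, 2.08 and 1.30 CPM without, a log2 fold change of 3.61 ± 0.15. Hoxa3 rose by 1.30 ± 0.30 on the log2 scale, at a low level of 2.20, 1.86 and 1.58 CPM with Hoxb1, against 0.369, 1.11 and 0.797 CPM without. Hoxa3 shares exon sequence on the other strand with the non-coding Hoxaas2, which had 35.2, 39.5 and 33.8 CPM with Hoxb1, against 1.401, 0.742 and 1.23 CPM without. Reads from the far higher Hoxaas2 may be mixed into Hoxa3, so the rise of Hoxa3 is uncertain. Of the 9 tested genes of Hox groups 1 to 4, 6 rose, all at least 2-fold, and none fell. These 6 include the induced Hoxb1, whose rise was set by the design, and the uncertain Hoxa3.

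More posterior Hox genes were near the limit of detection in both groups. Of 11 tested genes of groups 5 to 9, Hoxb9 alone was called (2 were called without library 2 of the group lacking Hoxb1, or without library 1 or 2 with Hoxb1), at 1.42, 0.851 and 1.36 CPM with Hoxb1, against 3.02, 2.38 and 3.41 CPM without, and none of 8 tested genes of groups 10 to 13 was called. Their summed level was 4.88 to 6.46 CPM with Hoxb1 and 7.20 to 8.84 CPM without for groups 5 to 9.

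**Figure D1:**
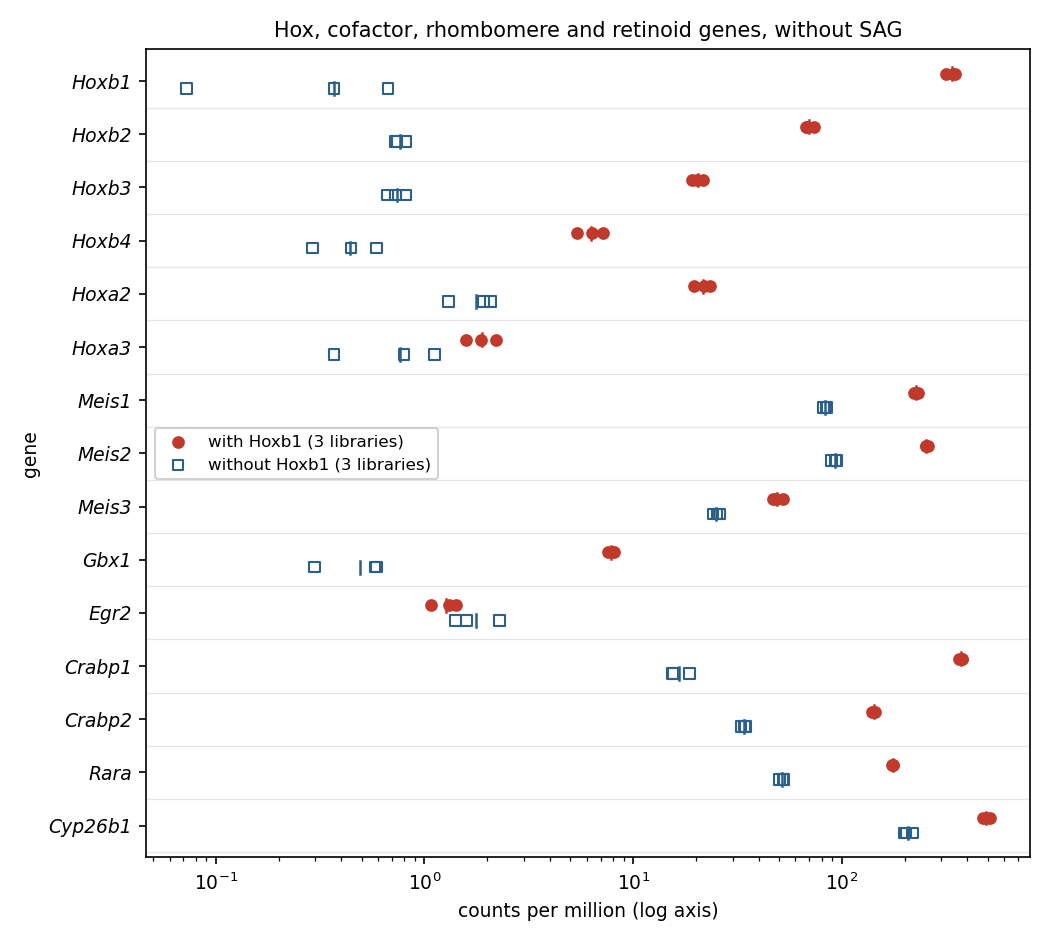
CPM (log axis, not scaled to gene length) of Hox, cofactor, rhombomere and retinoid genes without SAG, 1 point per library, with Hoxb1 (filled circles, above) and without Hoxb1 (open squares, below) and a bar at each group mean. Hoxb1 to Hoxb4, Hoxa2, Gbx1 and the Crabp genes sit far to the right with Hoxb1, whereas the Egr2 groups overlap.

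Short stretches of promoter are shown for Hoxb1, Hoxa2 and Tbx10, which is described next. These 3 genes were picked because they rose and each holds the letters TGATNNAT, a form of the site that PBX and HOX proteins bind together. Hoxb1 is the induced gene, so its own rise was set by the design. Of 8 genes of Hox groups 1 to 4 with a promoter in the table, 2 hold the letters, Hoxb1 and Hoxa2. The windows are from RefSeq (GRCm38.p6) and run from 250 bases before to 50 bases after a gene's start. They were searched on both strands, and capitals mark the match. In the Hoxb1 promoter (chr11:96365570-96365629, plus strand) the match begins 162 bases before the start, in the Hoxa2 promoter (chr6:52164909-52164968, minus strand) 111 bases before, and in the Tbx10 promoter (chr19:3992645-3992704, plus strand) 81 bases before.
Hoxb1: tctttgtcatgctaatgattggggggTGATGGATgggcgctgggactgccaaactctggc
Hoxa2: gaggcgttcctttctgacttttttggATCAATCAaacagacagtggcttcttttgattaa
Tbx10: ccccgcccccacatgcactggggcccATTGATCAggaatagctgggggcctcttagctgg
These letters are common: 2718 of 27025 genes with a promoter in the table hold them, or 10.1%. Of genes that rose at least 2-fold, 27 of 339 with a promoter hold them (7.96%), of genes that fell at least 2-fold 34 of 362 (9.39%), and of all tested genes 601 of 11501 (5.23%). A match is a description of the sequence and not evidence of a bound site.

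Among the other largest rises were genes of other families. Tbx10, a T-box transcription factor gene, had 10.8, 12.8 and 10.8 CPM with Hoxb1 and no read in any library without it, 467 reads against 0, which is at least 155-fold higher counted against 3 reads over the group. Mybpc1, which encodes a myosin-binding protein of muscle, had 127, 126 and 110.1 CPM with Hoxb1, against 1.92, 1.93 and 1.45 CPM without. Crym, which encodes a thyroid hormone-binding protein, had 53.3, 53.6 and 51.0 CPM with Hoxb1, against 2.21, 2.89 and 2.46 CPM without. The groups of all 3 genes were fully apart, which the rule that named the largest changes required.

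PBX and MEIS proteins, the TALE homeodomain partners of HOX proteins, changed mainly at Meis genes. Meis1 had 232, 227 and 223 CPM with Hoxb1, against 81.7, 83.9 and 84.9 CPM without, and Meis2 had 252, 254 and 258 CPM with Hoxb1, against 89.6, 93.5 and 94.3 CPM without. Both rose by more than 2-fold with no overlap between libraries, at log2 fold changes of 1.44 ± 0.04 and 1.46 ± 0.04 (SE, n = 3 each). Meis3 rose by 0.97 ± 0.06. Of the 9 TALE genes, 6 rose and 2 fell.

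Several genes of the hindbrain segments rose, but not Egr2. Gbx1, a homeobox gene of the hindbrain and the spinal cord, had 7.59, 8.12 and 7.90 CPM with Hoxb1, against 0.590, 0.297 and 0.580 CPM without. Fgf3, a growth factor of the hindbrain that acts on the inner ear, averaged 3.79 CPM with Hoxb1 and 1.54 CPM without, and Gbx2 averaged 9.45 CPM with Hoxb1 and 4.87 CPM without. These 3 genes rose, and their libraries did not overlap. Egr2, which marks the third and the fifth rhombomere, was not called, at 1.42, 1.31 and 1.08 CPM with Hoxb1 and 2.29, 1.41 and 1.59 CPM without (adjusted p = 0.151), and its groups overlapped. Of the 16 tested rhombomere genes, 11 rose and 4 fell, with a median log2 fold change of 0.25, against 0.0031 over all genes tested. The Eph receptor and ephrin genes among them, which keep segments apart, all changed by less than 1.5-fold.

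Retinoic acid gives hindbrain and trunk cells their posterior position, and cells control it with binding proteins, synthesizing and degrading enzymes and nuclear receptors. Both cellular binding proteins rose. Crabp1 had 378, 379 and 364 CPM with Hoxb1, against 18.7, 15.7 and 15.4 CPM without, and Crabp2 had 143, 145 and 140.3 CPM with Hoxb1, against 34.7, 33.0 and 34.1 CPM without. The log2 fold changes were 4.49 ± 0.05 for Crabp1 and 2.07 ± 0.05 for Crabp2 (SE, n = 3 each). The receptor gene Rara averaged 176 ± 1.15 CPM with Hoxb1 and 51.8 ± 1.45 CPM without (SD, n = 3 each), whereas Rarb, a classical direct target of retinoic acid, was not called at 3.23 CPM with Hoxb1 and 2.75 CPM without. The degrading enzyme gene Cyp26b1 rose too, at 511, 489 and 476 CPM with Hoxb1, against 203, 199.5 and 218 CPM without. Aldh1a2, the main synthesizing enzyme of the embryo, was not called at 4.18 CPM with Hoxb1 and 4.80 CPM without. In all, 8 of 18 retinoid genes rose, 6 of them at least 2-fold, and 3 fell. The number that fell was 1 to 4 over the other settings, and it moved when library 1 or 2 without Hoxb1, or library 1 or 3 with it, was left out.

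More anterior genes fell. Of 18 tested forebrain and eye field factors 12 fell, 7 of them at least 2-fold, and 1 rose, with a median log2 fold change of -0.80. Otx1, a head homeobox gene, had 41.9, 39.1 and 37.4 CPM with Hoxb1, against 120.3, 124 and 115 CPM without. Lhx2, needed for the cortex and the eye, had 26.3, 27.8 and 25.2 CPM with Hoxb1, against 67.0, 66.7 and 62.5 CPM without. The cortical gene Emx1 fell to 0.568 CPM with Hoxb1, against 3.04 CPM without. Tbr1, a gene of early cortical neurons and among the largest falls, had 9.30, 9.82 and 10.7 CPM with Hoxb1, against 55.1, 52.8 and 50.1 CPM without. None of these 4 genes overlapped between the groups, which for Tbr1 the rule that named the largest changes required. Vax2, a ventral eye gene, was the 1 that rose, with 5.73 CPM with Hoxb1 against 2.47 CPM without.

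Midbrain and isthmus genes split into a large falling set and a rising pair. Of 15 tested, 12 fell, 10 of them at least 2-fold, and 2 rose, with a median log2 fold change of -1.16. Wnt1, which the midbrain needs to form, had 28.5, 28.2 and 27.3 CPM with Hoxb1, against 102, 103 and 103 CPM without, a log2 fold change of -1.87 ± 0.05 (SE, n = 3 each). Otx2, which sets the posterior border of the midbrain, had 108, 102 and 96.5 CPM with Hoxb1, against 226, 211 and 212 CPM without. Barhl1 and Barhl2 fell by 1.92 and 1.77 on the log2 scale. The pair that rose, Pax2 and Pax8, are Pax genes used at the isthmus, in hindbrain and spinal interneurons and in the inner ear. Pax2 had 21.5, 21.6 and 23.6 CPM with Hoxb1, against 3.76, 4.01 and 4.28 CPM without. Their relative Pax5 fell, at 3.49 CPM with Hoxb1 against 7.84 CPM without.

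Along the dorsoventral axis of the neural tube, factors changed in both directions. Ventrally, 5 of 12 factors rose and 5 fell. Nkx6-1, of ventral motor neuron and interneuron progenitors, had 50.7, 52.5 and 52.1 CPM with Hoxb1, against 16.1, 16.1 and 19.6 CPM without, and rose by 1.58 ± 0.06 on the log2 scale. Foxn4, of V2 interneuron progenitors, and Dbx2, of more dorsal progenitors, averaged 4.90 and 2.29 CPM with Hoxb1 and 1.57 and 1.08 CPM without. Pax6, of intermediate progenitors, averaged 112 CPM with Hoxb1 and 70.3 CPM without. Nkx2-2, of the progenitors beside the floor plate, had 2.77, 2.78 and 3.02 CPM with Hoxb1, against 6.34, 9.13 and 9.42 CPM without. The motor neuron progenitor gene Olig2 had 17.3, 17.8 and 17.5 CPM with Hoxb1, against 35.2, 35.7 and 38.8 CPM without, and the floor plate gene Foxa2 averaged 4.09 CPM with Hoxb1 and 9.02 CPM without.

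Dorsally, 7 of 18 tested factors rose and 9 fell. Pax7 had 40.8, 36.2 and 41.7 CPM with Hoxb1, against 12.8, 12.9 and 13.3 CPM without, and Pax3, Msx3 and Olig3, of dorsal progenitor domains, rose by 0.99, 1.91 and 2.29 on the log2 scale. Msx1, of the roof plate and nearby cells, averaged 2.19 CPM with Hoxb1 and 1.08 CPM without and rose. Gdf7, Wnt3a and Lmx1a, which the roof plate also expresses, fell. Gdf7, a BMP ligand made there, had 2.84, 2.78 and 2.37 CPM with Hoxb1, against 10.7, 7.50 and 9.20 CPM without, and Wnt3a averaged 2.08 CPM with Hoxb1 and 5.76 CPM without. Lmx1a, needed to make a roof plate, averaged 6.41 CPM with Hoxb1 and 15.9 CPM without. The 5 Zic genes, zinc finger factors of the dorsal neural tube and the anterior brain, all fell, by 0.59 (Zic1) to 1.60 (Zic4) on the log2 scale. Zic1 and Zic4 share exon sequence on opposite strands.

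Neuronal genes rose by small amounts, and those of several neuron classes moved separately. Of 26 genes of postmitotic neurons 18 rose, only 2 at least 2-fold, and 4 fell, with a median log2 fold change of 0.30. The alpha-internexin gene Ina and the neurofilament gene Nefl were those 2. Elavl4, an RNA-binding protein of neurons, averaged 136 CPM with Hoxb1 and 76.4 CPM without, and the glutamate transporter gene Slc17a6 fell to 27.6 CPM with Hoxb1, against 49.1 CPM without. Among 12 tested proneural factors 9 rose and 3 fell. Neurog1 had 50.5, 47.2 and 48.6 CPM with Hoxb1, against 20.2, 20.9 and 22.1 CPM without. The call of Neurog2, a relative that drives neurogenesis, was lost in 8 of the other settings tried, and its groups overlapped, at 46.0, 43.5 and 41.6 CPM with Hoxb1 and 45.1, 37.8 and 33.5 CPM without. Neurod2 and Neurod6, of cortical neurons, fell by 2.61 and 2.42 on the log2 scale.

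Of 15 genes of branchiomotor and cholinergic neurons, 6 rose and 2 fell. Lhx4, a LIM gene of motor neurons and V2 interneurons, had 10.9, 10.7 and 10.4 CPM with Hoxb1, against 0.516, 0.742 and 0.435 CPM without. The partner gene Lhx3 had 1.21, 0.851 and 1.22 CPM with Hoxb1, against 0, 0.223 and 0.0725 CPM without. Chat, which makes acetylcholine, was low but higher in every library with Hoxb1, at 2.34, 1.78 and 1.22 CPM, against 0.0737, 0.223 and 0.145 CPM without. The GDNF receptor gene Ret had 9.30, 9.28 and 9.77 CPM with Hoxb1, against 2.29, 2.38 and 2.68 CPM without. Isl1, found in nearly all motor neurons, was not called at 5.79 CPM with Hoxb1 and 6.81 CPM without. Tbx20 and Mnx1, of facial and of spinal motor neurons, were below 1 CPM on average in both groups and not called.

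Of 12 V2 interneuron and serotonergic genes, 5 were higher and 5 lower, and with 50 counts required in 3 libraries 3 were higher. Vsx1, a homeobox gene of V2 interneurons, had 1.06, 1.01 and 1.29 CPM with Hoxb1, against 0.442, 0.223 and 0 CPM without. Gata2, of V2b and serotonergic precursors, rose by a small amount, with 10.4, 10.6 and 11.1 CPM with Hoxb1, against 7.37, 8.02 and 8.33 CPM without. Gata3 averaged 10.5 CPM with Hoxb1 and 8.59 CPM without, and its call was lost in 6 of the other settings tried. The serotonergic genes Fev, Tph2 and Slc6a4 were below 1 CPM on average in both groups, and Fev was called lower.

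Axon guidance genes changed in both directions, with 17 of 37 higher and 15 lower. Among those that rose, Robo3, which lets axons cross the midline, had 271, 254 and 241 CPM with Hoxb1, against 87.5, 98.1 and 94.5 CPM without, and the repellent gene Draxin had 81.0, 77.3 and 79.4 CPM with Hoxb1, against 22.2, 18.7 and 20.7 CPM without. Among those that fell were ligands made at the midline. Slit2 averaged 99.0 CPM with Hoxb1 and 169.8 CPM without, and netrin 1 (Ntn1) averaged 262 CPM with Hoxb1 and 355 CPM without.

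**Figure D2:**
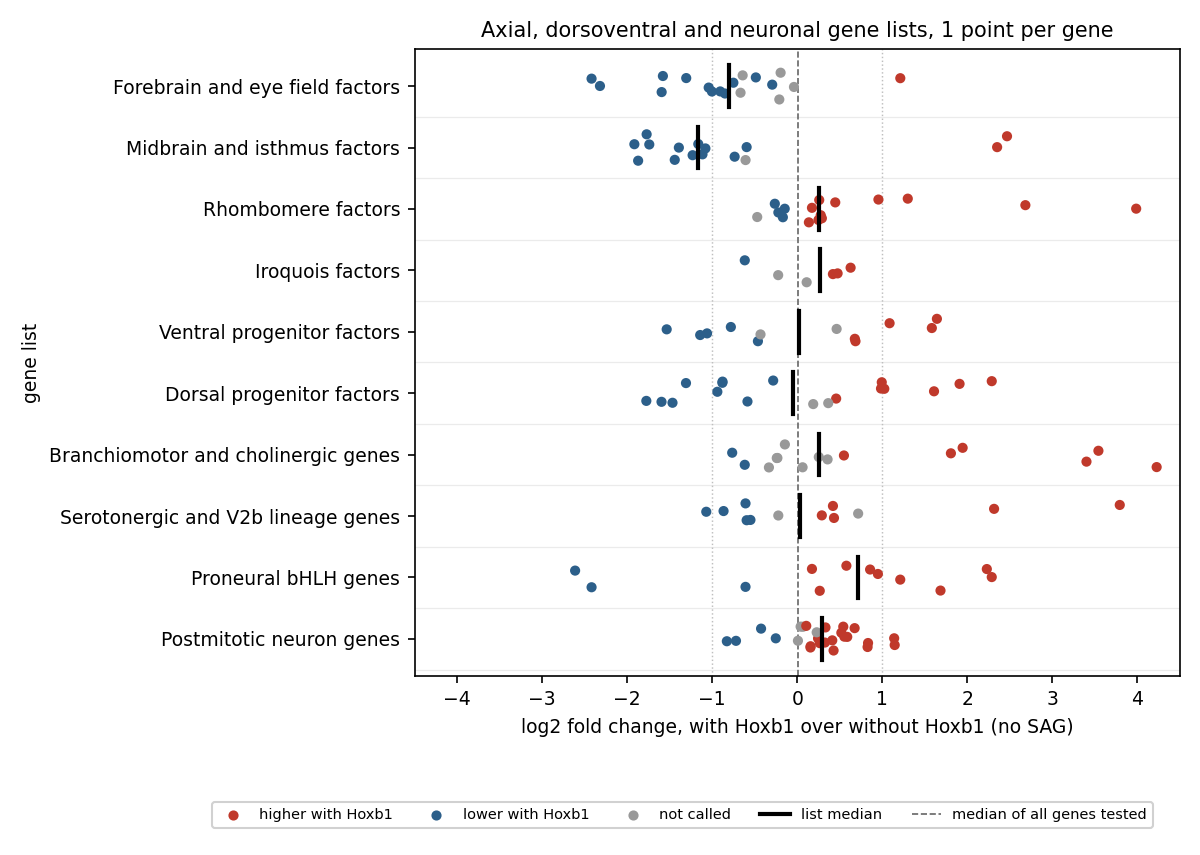
Log2 fold change of each tested gene (points; with Hoxb1 over without Hoxb1, no SAG) in 10 gene lists, coloured by call, with the list median (black bar) and the median of all genes tested (dashed line); dotted lines mark 2-fold. The forebrain and midbrain medians lie at -0.80 and -1.16, and single rhombomere, branchiomotor and V2 genes lie far to the right of their list medians.

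Notch signalling holds progenitors back from differentiating. Its ligands bind Notch receptors, whose cleaved domain acts with Rbpj on Hes and Hey genes. Of 23 genes 14 rose, 4 of them at least 2-fold, and 1 fell. Without library 1 of either group 2 fell. Among ligands, Dll1 had 228, 228 and 218 CPM with Hoxb1, against 135, 115 and 114 CPM without, and Jag1 was not called at 157 CPM with Hoxb1 and 162 CPM without. Among receptors, Notch1 had 496, 494 and 462 CPM with Hoxb1, against 223, 252 and 238 CPM without, while Notch2 was not called at 185 CPM with Hoxb1 and 195 CPM without. The feedback gene Nrarp had 139, 136 and 124 CPM with Hoxb1, against 63.7, 66.7 and 67.2 CPM without. Hes1 was the gene that fell, with 44.4, 45.3 and 44.3 CPM with Hoxb1, against 73.5, 73.5 and 77.5 CPM without, whereas Hes5 rose by 1.11 on the log2 scale.

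FGF and hedgehog genes fell in larger numbers than they rose. Of 22 FGF genes 13 fell and 4 rose, with a median log2 fold change of -0.39. Fgf18 averaged 4.38 CPM with Hoxb1 and 11.9 CPM without, and the FGF-induced genes Spry1, Spry2, Spry4, Dusp6, Etv4 and Etv5 fell by 0.36 (Etv5) to 1.12 (Spry1) on the log2 scale. The receptor gene Fgfr3 went the other way, with 56.2, 57.9 and 53.1 CPM with Hoxb1, against 13.6, 12.2 and 15.9 CPM without, as did the phosphatase gene Dusp4 at 313 CPM with Hoxb1 against 182 CPM without. Of 11 hedgehog genes 7 fell and 1 rose. Gli1, a transcription factor gene that the pathway induces, had 75.9, 78.8 and 75.3 CPM with Hoxb1, against 146, 163 and 164 CPM without, and the receptor gene Ptch1, also induced, had 207, 202 and 198 CPM with Hoxb1, against 254, 285 and 304 CPM without. The co-receptor gene Boc rose to 204 CPM with Hoxb1, against 151 CPM without.

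Wnt genes changed in both directions. Of 24 tested, 9 rose, 7 of them at least 2-fold, and 14 fell, 6 of them at least 2-fold. Among ligands, Wnt7a had 79.8, 82.3 and 79.2 CPM with Hoxb1, against 14.0, 16.1 and 20.1 CPM without, and Wnt5a averaged 139 CPM with Hoxb1 and 67.9 CPM without. Wnt1, Wnt3, Wnt3a and Wnt8b fell, Wnt8b to 21.7 CPM with Hoxb1, against 77.0 CPM without. Rspo3, whose protein strengthens Wnt signals, had 21.0, 21.0 and 21.4 CPM with Hoxb1, against 94.3, 75.0 and 79.7 CPM without. The secreted inhibitors Sfrp1 and Sfrp2 rose. Sfrp2 had 243, 255 and 250.05 CPM with Hoxb1, against 73.6, 75.6 and 77.5 CPM without, and Sfrp1 had 237, 235 and 228 CPM with Hoxb1, against 85.5, 78.0 and 75.8 CPM without. Among genes induced by canonical Wnt signalling, Axin2 fell to 85.7 CPM with Hoxb1 against 109 CPM without, Lef1 to 23.9 CPM with Hoxb1 against 39.2 CPM without and Sp5 to 1.96 CPM with Hoxb1 against 5.15 CPM without, whereas Lgr5, a receptor gene induced in many tissues, rose to 25.5 CPM with Hoxb1, against 8.32 CPM without. Of 20 BMP, Nodal and Id genes 5 rose and 10 fell. Grem1, a secreted BMP inhibitor, had 6.10, 5.72 and 4.60 CPM with Hoxb1, against 0.959, 1.11 and 1.01 CPM without, and Id1, which BMP signals induce, averaged 54.3 CPM with Hoxb1 and 33.2 CPM without.

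**Figure D3:**
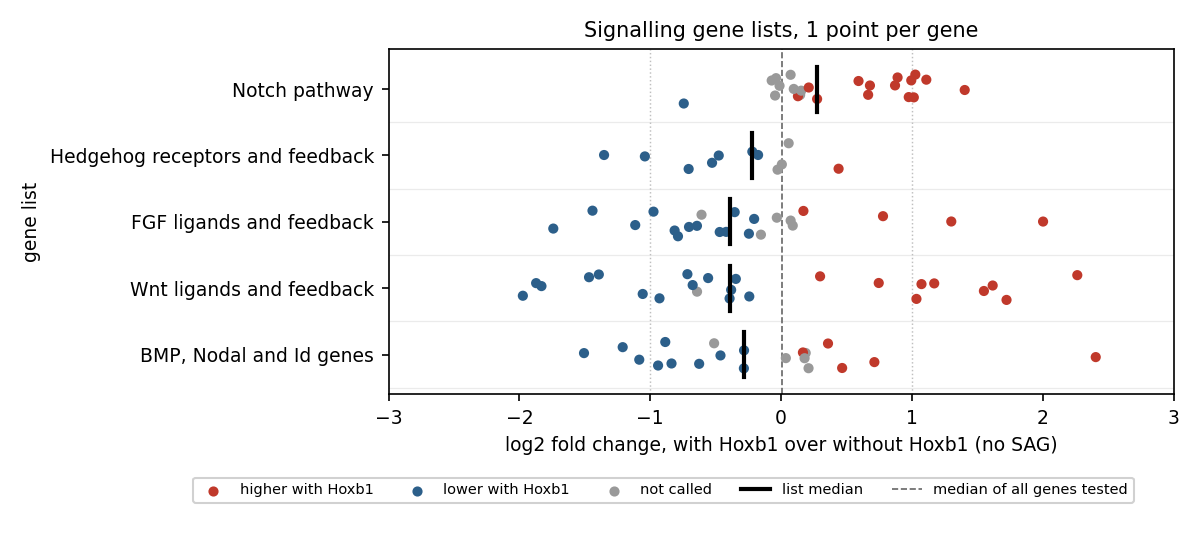
Log2 fold change of each tested gene (points; with Hoxb1 over without Hoxb1, no SAG) in 5 signalling lists, coloured by call, with the list median (black bar) and the median of all genes tested (dashed line); dotted lines mark 2-fold. Notch genes lie mostly to the right, and the Wnt list spreads to both sides with a median of -0.39.

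Most genes of the ATF4 pathway fell. ATF4 is a transcription factor that cells translate when the kinases EIF2AK1 to EIF2AK4 sense amino acid shortage, unfolded protein or other stress, and it induces genes for amino acid uptake, amino acid synthesis and tRNA charging. Of 20 regulators and regulatory targets of this pathway 19 fell, 15 of them at least 2-fold, with a median log2 fold change of -1.47. Of 22 amino acid and one-carbon targets 20 fell, 15 of them at least 2-fold, with a median of -1.45, and 1 rose (2 without library 3 of the group lacking Hoxb1). Of 20 cytosolic aminoacyl-tRNA synthetase genes 16 fell, 7 of them at least 2-fold, with a median of -0.94. Without library 1 of the group lacking Hoxb1, the numbers that fell were 18, 20 and 16. Most genes of these lists were highest in the group with neither Hoxb1 nor SAG, as given below with the SAG comparison.

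Among regulators, Atf4 itself had 215, 201 and 200.3 CPM with Hoxb1, against 382, 391.7 and 397 CPM without, and fell by 0.92 on the log2 scale. Atf5, an ATF4 target and related factor, had 59.5, 62.3 and 63.4 CPM with Hoxb1, against 701, 818 and 860.0 CPM without, a log2 fold change of -3.68 ± 0.09 (SE, n = 3 each, adjusted p = 5.23e-10). Trib3, an inhibitor that ATF4 induces, had 9.65, 9.05 and 9.34 CPM with Hoxb1, against 89.7, 109.9 and 112 CPM without. Cebpb, a dimer partner of ATF4, had 2.70, 3.79 and 3.66 CPM with Hoxb1, against 16.3, 21.5 and 25.4 CPM without. The groups did not overlap for any of these 4. The rule that named the largest falls, Atf5 and Trib3 among them, required this. Atf5 shares exon sequence with Il4i1, and Cebpb with Tmem189, on the other strand. The gene of the list that rose was Eif2ak3, the kinase of the endoplasmic reticulum, with 49.2, 49.6 and 49.2 CPM with Hoxb1, against 36.7, 37.7 and 35.8 CPM without.

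Amino acid genes fell at uptake, synthesis and one-carbon metabolism. Slc7a11, a cystine transporter, had 5.11, 3.56 and 3.30 CPM with Hoxb1, against 27.7, 34.2 and 33.3 CPM without. Slc7a5, a transporter of large neutral amino acids, had 283, 285 and 297 CPM with Hoxb1, against 1249.5, 1359.8 and 1405 CPM without, and Slc7a3, a transporter of arginine and lysine, had 34.8, 36.4 and 36.7 CPM with Hoxb1, against 173, 191 and 192 CPM without. Asns, which makes asparagine, had 216, 219 and 226 CPM with Hoxb1, against 629, 659 and 658 CPM without. The mitochondrial folate enzyme gene Aldh1l2 had 36.5, 33.6 and 37.1 CPM with Hoxb1, against 170.5, 188 and 191 CPM without. Cbs, which starts cysteine synthesis, rose to 27.8 CPM with Hoxb1, against 19.7 CPM without, and Got1 was not called at 96.9 CPM with Hoxb1 and 91.3 CPM without. Among the synthetases, Lars, for leucine, had 233, 228 and 237 CPM with Hoxb1, against 516, 537 and 539 CPM without. Qars, for glutamine, rose to 322 CPM with Hoxb1, against 264 CPM without, and Dars and Farsa, for aspartate and the alpha chain for phenylalanine, were not called. The synthetases called higher numbered 2, but 1 when library 1 or 2 without Hoxb1, or library 1 or 3 with it, was left out.

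Promoter stretches of 5 of these genes and of Herpud1, described next, are shown because they hold TGATGNAA, the letters of the C/EBP-ATF response element to which ATF4 binds with a C/EBP partner. Windows and search were as above, and capitals mark the match on either strand. The stretches are chr2:119351023-119351082 for Chac1 (plus strand), chr3:50443627-50443705 for Slc7a11 (minus strand), chr1:191183410-191183469 for Atf3 (minus strand), chr7:126625547-126625606 for Nupr1 (minus strand), chr6:7693210-7693258 for Asns (minus strand) and chr8:94386291-94386350 for Herpud1 (plus strand). Slc7a11 holds 2 matches.
Chac1: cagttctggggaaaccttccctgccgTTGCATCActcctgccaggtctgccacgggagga
Slc7a11: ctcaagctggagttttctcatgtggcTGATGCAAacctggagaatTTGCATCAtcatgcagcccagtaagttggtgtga
Atf3: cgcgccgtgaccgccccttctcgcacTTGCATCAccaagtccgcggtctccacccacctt
Nupr1: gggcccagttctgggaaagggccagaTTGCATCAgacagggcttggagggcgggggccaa
Asns: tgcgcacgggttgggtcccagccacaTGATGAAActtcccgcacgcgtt
Herpud1: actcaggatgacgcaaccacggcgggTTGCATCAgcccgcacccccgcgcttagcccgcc
The letters were found in 6 of 19 pathway regulators with a promoter in the table (31.6%), 5 of 18 amino acid and one-carbon targets (27.8%) and 5 of 12 synthetases (41.7%). All of these 16 genes fell except Got1. In the same lists as a whole 19 of 20, 20 of 22 and 16 of 20 tested genes fell. The count among genes with a match is near that share and is no result about the letters. Across all tested genes with a promoter, 317 of 11501 hold the letters (2.76%). Of genes that fell at least 2-fold it was 33 of 362 (9.12%), and of genes that rose at least 2-fold 9 of 339 (2.65%). In the promoters shown here and above, no match of one set of letters overlapped a match of the other.

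Chaperone genes of the unfolded protein response did not fall with the ATF4 genes. Of 15 endoplasmic reticulum genes 6 rose and 3 fell, with a median log2 fold change of -0.0034. The number that fell was 1 with DESeq2, and 1 when library 3 without Hoxb1, or library 1 or 2 with it, was left out. Hspa5, the main chaperone of the compartment, had 368, 368 and 371 CPM with Hoxb1, against 296, 299 and 299 CPM without. Herpud1, a degradation factor, was the 1 that fell at least 2-fold, with 58.4, 52.4 and 61.6 CPM with Hoxb1, against 150.2, 153 and 153 CPM without. In the mitochondrial response, 2 of 8 genes rose (1 without library 2 of either group) and 4 fell, and Hspa9, the mitochondrial HSP70, fell most, at 504, 503 and 499 CPM with Hoxb1, against 894, 1012 and 1077 CPM without. Of 21 glycolysis and hypoxia genes 4 rose and 7 fell with a median of 0.0052, and Vegfa, a vessel growth factor, fell to 182 CPM with Hoxb1, against 480.0 CPM without.

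Cholesterol synthesis genes moved the opposite way, as a nearly complete pathway. Of 20 genes 19 rose, 5 of them at least 2-fold, and none fell, with a median log2 fold change of 0.68. Hmgcs1, which makes the first committed precursor, had 729.6, 735 and 761 CPM with Hoxb1, against 402, 340.2 and 333 CPM without, a log2 fold change of 1.05 ± 0.06 (SE, n = 3 each). Lss, which closes the sterol rings, had 142, 139.7 and 144 CPM with Hoxb1, against 75.1, 69.7 and 67.5 CPM without. The libraries of the groups did not overlap for these genes. The gene not called was Pmvk, at 41.6 CPM with Hoxb1 and 38.4 CPM without. TCACNCCAC, the letters of the sterol regulatory element, were found in the Hmgcs1 promoter alone among 14 genes of the list with a promoter.

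**Figure D4:**
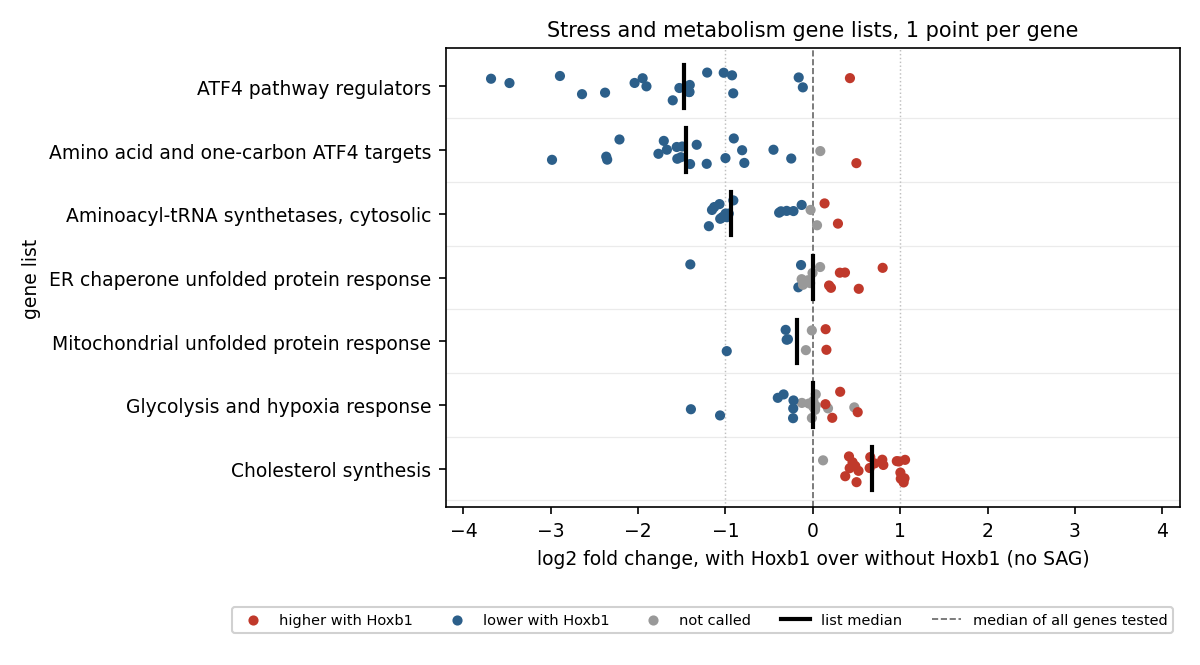
Log2 fold change of each tested gene (points; with Hoxb1 over without Hoxb1, no SAG) in 7 stress and metabolism lists, coloured by call, with the list median (black bar) and the median of all genes tested (dashed line); dotted lines mark 2-fold. The ATF4 lists lie to the left at medians of -1.47 and -1.45, the endoplasmic reticulum chaperones centre on the median of all genes, and cholesterol synthesis lies to the right at 0.68.

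Cell cycle genes changed little in size. Of 25 replication and mitosis genes 13 rose and 5 fell, none by 2-fold. The 13 that rose are mostly cyclin and mitosis genes such as Cdk1, at 106 CPM with Hoxb1 and 77.5 CPM without. The 5 that fell are Mcm2, Mcm3, Mcm5, Mcm6 and Tyms, which act in DNA replication. Replication genes did not all fall, since Mcm4, Mcm7, Pcna and Rrm2 were among the 7 not called. Among 14 inhibitor genes 10 rose and 2 fell. Cdkn1c, an inhibitor that neural progenitors switch on as they leave the cycle, averaged 383 CPM with Hoxb1 and 245 CPM without. Gadd45a fell to 22.6 CPM with Hoxb1, against 42.0 CPM without.

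Markers of other cells moved in several lists, beside the results above. Of 18 pluripotency genes 15 fell and none rose, and their summed level was 264 to 311 CPM with Hoxb1 and 447 to 503 CPM without. None of the 18 lacked reads. Pou5f1, the defining stem cell gene, averaged 31.1 CPM with Hoxb1 and 49.5 CPM without, and Esrrb averaged 25.0 CPM with Hoxb1 and 51.5 CPM without. Of 7 tested endothelial and blood genes 4 fell and none rose. The number that fell was 2 when library 1 of either group was left out, and the sum over the list was 20.9 to 23.9 CPM with Hoxb1 and 38.2 to 40.4 CPM without. Of 11 tested trunk neuromesodermal genes 6 fell, all at least 2-fold, and 2 rose (1 to 3 over the other settings), with a median log2 fold change of -1.32. Brachyury (T), their defining gene, averaged 3.61 CPM with Hoxb1 and 12.7 CPM without, and the sum over the list was 153 to 162 CPM with Hoxb1 and 165 to 168 CPM without. Of 20 fibroblast and mesenchyme genes 13 rose and 3 fell, with sums of 2155 to 2177 CPM with Hoxb1 and 1606 to 1654 CPM without. Col6a3, a collagen gene of that list, rose to 65.0 CPM with Hoxb1, against 25.0 CPM without. Of 13 neural crest genes 7 rose and 1 fell. Sox8 led them, with 33.9, 34.2 and 34.8 CPM with Hoxb1, against 7.30, 8.39 and 9.06 CPM without, and Sox10, the defining crest gene, was not called at 5.01 CPM with Hoxb1 and 4.33 CPM without. Among 9 tested somitic genes Dll3, also a Notch ligand gene, was the 1 that rose. Sums for somitic mesoderm were 143 to 149 CPM with Hoxb1 and 115 to 117 CPM without, and for endoderm 115 to 123 CPM with Hoxb1 and 108 to 128 CPM without. Of 18 SoxB1 and radial glia genes 6 rose and 7 fell. The part of other cells in the results above was not tested.

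The same induction was also made in the presence of SAG, in 6 further libraries with 22610407 to 26974315 counted reads. These were prepared under other library numbers and sequenced deeper, and that cannot be told apart from SAG. The difference between both effects was tested for Hoxb1 and for the 5 largest rises and 5 largest falls without SAG. It was called for 35.5% of all tested genes, a share that is no background for genes picked for their effect without SAG. Hoxb1's own effect was not called as different (difference of -0.52 on the log2 scale, adjusted p = 0.441), and neither were those of Mybpc1, Hoxb3os, Chac1 and Tbx10, whose difference could not be estimated with no read in either group lacking Hoxb1. For Hoxb1 the difference rests on few reads in the groups without it, which with SAG alone had 0.519, 0.396 and 0.510 CPM. Its induced level was not the same in both cultures. It had 635, 597 and 612 CPM with Hoxb1 and SAG, against 349.5, 343 and 317 CPM with Hoxb1 and no SAG. Hoxb2 reached 77.6, 76.7 and 73.4 CPM with Hoxb1 and SAG, against 2.64, 2.20 and 2.38 CPM with SAG alone, so that the rise without SAG was larger by 1.52 on the log2 scale (adjusted p = 1.28e-06). The Hoxb2 level with Hoxb1 was similar in size in both cultures, and the Hoxb2 level without Hoxb1 was higher with SAG. Hoxaas2 rose by 2.57 more without SAG.

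Tbx10 had 0.616, 0.725 and 0.809 CPM with Hoxb1 and SAG and no read with SAG alone. For 4 of the 5 falling genes the difference was called. Atf5 had 50.7, 47.7 and 46.5 CPM with Hoxb1 and SAG, against 47.2, 55.2 and 54.5 CPM with SAG alone. Both are near its level with Hoxb1 and no SAG and far below its level with neither. Trim66, of the bromodomain TRIM family and the largest fall among genes at 10 CPM or more, had 6.88, 6.496 and 8.98 CPM with Hoxb1, against 184, 252 and 262 CPM without, and with SAG 1.14, 1.29 and 1.25 CPM with Hoxb1, against 1.56, 2.99 and 2.08 CPM without. The effects differed by -3.57 for Atf5, -4.09 for Trim66, -1.88 for Trib3 and -1.52 for Slc7a11 on the log2 scale. With SAG the median log2 fold change of Hoxb1 over no Hoxb1 was -0.30 for the ATF4 regulators, -0.20 for the amino acid and one-carbon targets, -0.12 for the synthetases, -0.026 for the endoplasmic reticulum genes and 0.33 for the cholesterol genes, beside the medians without SAG given above. Of the 4 neural progenitor groups, that with neither Hoxb1 nor SAG was highest for 26.1% of all tested genes. It was highest for 19 of 20 ATF4 regulators, 20 of 22 amino acid and one-carbon targets and 15 of 20 synthetases. It was also highest for 11 of 15 midbrain and isthmus genes, whose median log2 fold change with SAG was -0.022. The comparisons with and without SAG use separate control libraries.

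**Figure D5:**
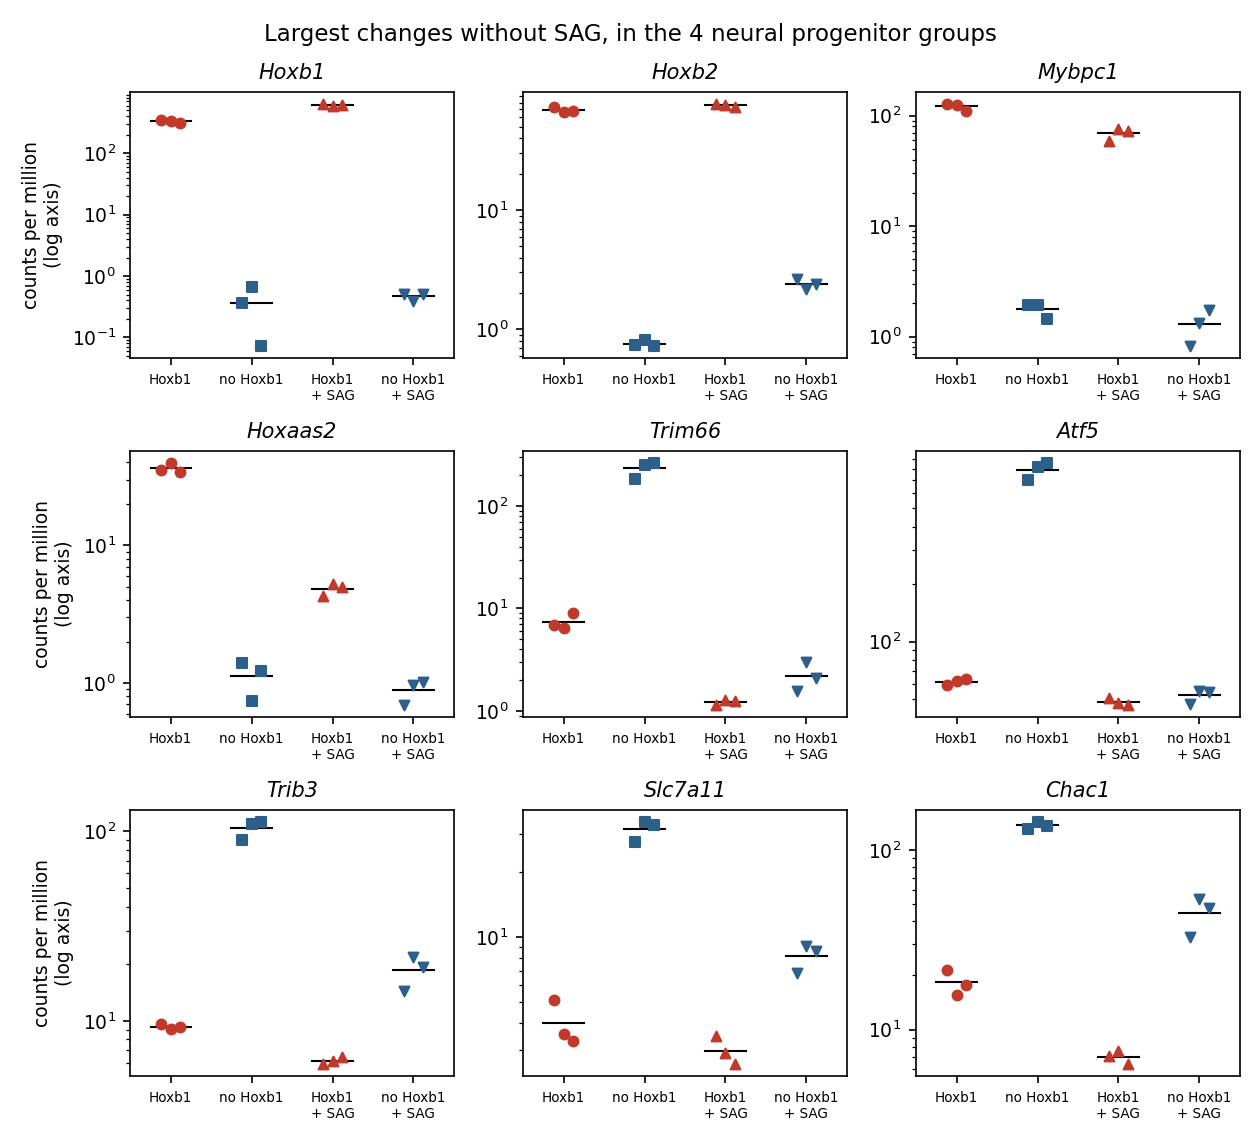
CPM (log axes) of 9 of the 11 genes compared across SAG, 1 point per library, in the groups with Hoxb1, without Hoxb1, with Hoxb1 and SAG, and with SAG alone (bars are group means). Hoxb1 and Hoxb2 follow induction in both cultures, whereas Trim66 and Atf5 are high in the group without Hoxb1 and SAG and at 63.4 CPM or less in each library of the other 3 groups.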

How the data were processed

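Poly(A) RNA was sequenced from libraries of a strand-specific kit with 15 PCR cycles, per the labels' protocols. The authors deposited 1 table of whole-number read counts per gene with each gene's exon length and mm10 coordinates, made with bcl2fastq 1.8.2 and featureCounts 1.4.6 per the submitters' processing notes. The sources used here name no aligner and no strand setting, so reads of overlapping genes may be mixed, and genes with near-identical copies are uncertain. Symbols were found for 35449 of 37224 gene IDs.

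From the deposited counts, edgeR 4.0.16 and limma 3.58.1 (R 4.3.3) kept 16238 genes (filterByExpr) and scaled libraries by TMM (factors 0.972 to 1.03). A quasi-likelihood model with 1 term per group was fitted to the 12 neural progenitor libraries, with and without SAG, which share 1 estimate of the spread (a common coefficient of variation of 2.91% with 8 degrees of freedom left). The threshold was an adjusted p of 0.05 (Benjamini-Hochberg). CPM are TMM-scaled, and SDs are over 3 libraries per group. SEs of log2 fold changes are the fold change divided by the square root of the test's F value. They therefore use the spread shared over the 12 libraries, and the n beside an SE is the number of libraries in each group compared. No pair of libraries was a duplicate by a chi-square test of counts. Folds against a group at 0 were counted against 3 reads, which covers counting error only. The scripts were tested on simulated data.

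Members and the 48 gene lists (738 symbols, 7 without a row) were chosen with earlier results of these data known. Named genes were the 8 largest changes each way at 10 CPM or more without overlap, up to 4 called genes at 1 CPM or more and 2 not called per list, and 26 genes whatever their value. Added after their values were seen were Aldh1a2, Asns, Atf3, Axin2, Barhl2, Boc, Cbs, Dbx2, Dll1, Dusp4, Dusp6, Eif2ak3, En1, Esrrb, Etv4, Etv5, Fev, Hes1, Hspa5, Id1, Jag1, Lef1, Lgr5, Lhx2, Lmx1a, Mcm2, Mcm3, Mcm4, Mcm5, Mcm7, Mnx1, Msx1, Neurog1, Ntn1, Nupr1, Olig2, Pax3, Pax5, Pcna, Pou5f1, Qars, Sfrp1, Sfrp2, Slit2, Sox10, Spry1, Spry2, Spry4, Tbx20, Vax2, Wnt3, Wnt5a, Zic1 and Zic4, and the genes named under the other observations.

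Alternatives were DESeq2 1.42.0, upper-quartile scaling, no filter, a filter of 50 counts in 3 libraries, only the 6 libraries without SAG, the replicate number as a block and each library left out. Promoters are RefSeq windows from 250 bases before to 50 after the start (GRCm38.p6), found for 11501 of the tested genes. A few members of the lists are not reported here by name.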

Additional observations from a re-analysis of the deposited data

Results flagged for a closer look

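For 6 of the 11 genes compared across SAG, an interaction test in edgeR's quasi-likelihood fit (Benjamini-Hochberg adjusted p under 0.05) found the effect of Hoxb1 to differ between cultures without and with SAG. Of the 11, 10 were picked for the largest effects without SAG, which favours a larger effect there, so the number called is no finding in itself. The rise of Hoxb2 was larger without SAG by 1.52 on the log2 scale, and that of Hoxaas2 by 2.57 (adjusted p = 3.52e-09). Hoxaas2 averaged 4.84 CPM with Hoxb1 and SAG, against 0.895 CPM with SAG alone. Among the genes that fell, the difference without minus with SAG was -4.09 for Trim66 (adjusted p = 0.00274), -3.57 for Atf5 (adjusted p = 2.94e-08), -1.88 for Trib3 (adjusted p = 0.000492) and -1.52 for Slc7a11 (adjusted p = 3.72e-06). With SAG, Trib3 averaged 6.17 CPM with Hoxb1, against 18.5 CPM without, and Slc7a11 2.99 CPM with Hoxb1, against 8.19 CPM without. Each of the 3 libraries with Hoxb1 was below each of the 3 without it for Trib3 and Slc7a11 in both cultures. Without SAG, the rule that named both genes required this. The libraries with SAG are also deeper and carry other library numbers, which cannot be told apart from SAG.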

How the results depend on the processing

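No result reversed. The counts of genes called higher and lower (3908 and 3591) were 3506 and 3147 with DESeq2, 3493 and 4058 with upper-quartile scaling and 3729 and 3833 in the 6 libraries without SAG alone, all within 1.5 times. Leaving out 1 library at a time gave 3397 to 3616 genes higher and 3209 to 3468 lower, 456 to 498 higher and 496 to 544 lower at 2-fold, and 5182 to 5560 genes with a difference by SAG (5759 in all libraries). At 2-fold, requiring 50 counts in 3 libraries moved the number lower to 313, against 493, with 13804 genes tested in place of 16238. With this filter 339 were higher, more than were lower, whereas the main fit had more lower than higher at 2-fold. With the replicate number as a block, 4148 genes were higher and 3766 lower. Libraries of the same number had residual correlations of 0.0144 to 0.044, and those of different numbers -0.0477 to 0.012. All are small, and whether the numbers pair the samples was not settled. With the block the common coefficient of variation was 2.16%, against 2.91% without it. Of the named genes' values under all alternatives, 3128 kept their side of the threshold, 54 lost the call and 45 gained it. Among genes named by the rule, calls lost in some settings were those of Cd34, Cdkn2b, Dlx5, Flt1, Fosb, Foxd3, Gata3, Kdm5d, Myh6, Ndrg1, Neurog2 and Pmaip1. The retinoid genes called lower numbered 1 to 4, and the V2 and serotonergic genes called higher 3 to 5. With 3 libraries a group, genes below about 1 CPM rest on few reads, so a difference in them may not be detectable at this depth.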

Other observations

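Some neuronal genes outside the lists above were picked because they had changed, and no count of their classes was made. The glycine transporter gene Slc6a5, a defining gene of glycinergic neurons, had 14.3, 12.9 and 13.2 CPM with Hoxb1, against 1.18, 0.965 and 1.23 CPM without, and the glycine receptor gene Glra1 had 11.99, 11.2 and 11.8 CPM with Hoxb1, against 0.959, 0.816 and 0.652 CPM without. Slc32a1, the vesicle transporter of GABA and glycine, averaged 36.5 CPM with Hoxb1 and 17.8 CPM without. Lbx1, a homeobox gene of dorsal hindbrain and spinal interneurons, had 18.7, 19.95 and 19.04 CPM with Hoxb1, against 2.58, 2.67 and 2.61 CPM without, and Pou4f2 had 27.4, 28.8 and 27.4 CPM with Hoxb1, against 2.95, 2.67 and 3.77 CPM without. Crhr1, a receptor of corticotropin-releasing hormone, had 28.0, 27.8 and 28.2 CPM with Hoxb1, against 1.99, 2.15 and 2.68 CPM without. Groups of libraries did not overlap for these 6 genes, and all were called higher by edgeR's quasi-likelihood test. Since they were picked for having changed, this is no further support. Over all tested genes, 53.8% did not overlap and 24.1% were called higher.

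Among falling genes picked in the same way, Eomes, of intermediate progenitors of the cortex, had 8.52, 8.74 and 8.404 CPM with Hoxb1, against 44.8, 36.3 and 30.7 CPM without. Dmrt3 and Dmrta2, of the dorsal telencephalon, averaged 2.63 and 24.5 CPM with Hoxb1 and 12.1 and 68.4 CPM without. Rspo2, a Wnt-strengthening relative of Rspo3, had 28.2, 28.3 and 27.5 CPM with Hoxb1, against 139.6, 130.1 and 127 CPM without. Lhx9, a LIM gene of thalamic and midbrain neurons, averaged 7.96 CPM with Hoxb1 and 36.4 CPM without.

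Of 10 tested mitochondrially encoded messenger RNAs 7 rose (5 to 7 over the other settings). Among these, mt-Co2 and mt-Atp6 averaged below 1 CPM in both groups. mt-Co1, of complex IV, was not called at 4422 CPM with Hoxb1 and 4472 CPM without, nor was mt-Nd5 at 1058 CPM with Hoxb1 and 1053 CPM without. mt-Nd2, a complex I subunit, averaged 941 CPM with Hoxb1 and 422 CPM without. Of 8 tested glial genes 3 rose and 1 fell, or 2 fell without library 3 of the group lacking Hoxb1. Gfap, an astrocyte gene, averaged 0.325 CPM with Hoxb1 and 2.05 CPM without and was called lower.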
